A study of Mus musculus with 32 samples.

Results

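The genes of the dystrophin-glycoprotein complex were followed in mouse gastrocnemius (GAS) muscle after sciatic nerve transection. The 8 members, Dmd, Utrn, Dag1, Sgca, Sgcb, Sgcd, Dtna and Sspn, were taken by name, and all 8 were found among the 33397 genes of the deposited table and passed the filter on low values. The mice were C57BL/6 in the labels and C57BL/6J in the study's methods, male and 6 to 8 weeks old, and muscle RNA was sequenced at 0, 1, 3, 5, 7, 14, 21 and 28 d post denervation with 4 samples at each time point. The labels list nerve transection for the 0 d samples too, and these were taken as the nondenervated group because the column names of that group could belong to no other time point. No sham group was matched to each day, so time since the start and denervation cannot be told apart. In whole muscle, fewer cells of a type and less RNA per cell cannot be told apart either.

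Dystrophin, encoded by Dmd, ties the actin cytoskeleton beneath the muscle fibre membrane to dystroglycan, which spans the membrane and binds laminin in the basement membrane. The sarcoglycans form a subcomplex beside dystroglycan together with sarcospan, and the dystrobrevins and syntrophins bind dystrophin on the inner face of the membrane and hold neuronal nitric oxide synthase there. Loss of dystrophin or of a sarcoglycan makes the membrane fragile and causes muscular dystrophy, and utrophin, a relative of dystrophin, is concentrated at the neuromuscular junction of adult fibres.

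The starts of 3 members whose transcripts moved in different ways are shown because the same letters occur in each. The stretches are the 250 bases before a RefSeq transcription start in GRCm38.p6, written 5′ to 3′ on the strand of the gene. The Dmd stretch is chrX:82948620-82948869 on the plus strand, before the start used by the muscle transcript. The Sgca stretch is chr11:94976328-94976577 on the minus strand. The Sspn stretch is chr6:145933872-145934121 on the plus strand, before the downstream of its annotated starts. Capitals mark CANNTG, the core letters of the E-box that basic helix-loop-helix factors bind, which read the same way on both strands.
Dmd: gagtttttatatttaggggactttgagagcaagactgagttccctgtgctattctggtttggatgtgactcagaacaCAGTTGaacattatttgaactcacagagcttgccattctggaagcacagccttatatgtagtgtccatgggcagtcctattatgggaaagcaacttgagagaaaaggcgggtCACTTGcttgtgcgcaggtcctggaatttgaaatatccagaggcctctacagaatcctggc
Sgca: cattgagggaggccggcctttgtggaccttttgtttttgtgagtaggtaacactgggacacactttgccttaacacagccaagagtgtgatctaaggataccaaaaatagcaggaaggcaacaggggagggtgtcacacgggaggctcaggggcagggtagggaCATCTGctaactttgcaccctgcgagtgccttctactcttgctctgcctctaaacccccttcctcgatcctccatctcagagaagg
Sspn: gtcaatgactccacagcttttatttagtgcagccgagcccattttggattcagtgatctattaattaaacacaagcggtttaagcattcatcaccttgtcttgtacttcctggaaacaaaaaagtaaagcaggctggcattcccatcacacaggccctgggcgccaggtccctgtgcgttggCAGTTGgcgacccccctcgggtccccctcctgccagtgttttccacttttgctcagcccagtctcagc
These letters are common, and 72.3% of 32851 RefSeq promoter windows of 300 bases held CANNTG. Of the 10 windows found for 7 of the members, 7 held it within 250 bases before the start or 50 after it. Dmd and Sspn each had another window, not printed, that held no CANNTG, so the printed starts were picked for these letters. None of the 10 held CAGCTG, a form of E-box contained in CANNTG, or TTCCGG, the letters of the N-box known from synaptic genes, both searched on both strands. The shares of all windows that held them were 16.3% and 14.9%. A match is a description of the sequence and not a bound site.

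Between 14199902 and 17561584 fragments per sample could be recovered from the FPKM values, and p-values measure only the spread between the 4 samples of a group. FPKM (fragments per kilobase of exon, scaled to the size of the library) was compared as log2(FPKM + 1), on which fold changes of low genes are understated. A gene was called higher or lower when its adjusted p from limma was under 0.05 and its fold change on that scale reached 1.5. Mitochondrial transcripts made up 14.5% to 18.2% of fragments at 0 d and 7.27% to 11.99% at 14 to 28 d. A second scaling, which set the median ratio between samples over genes to 1, lowered the median change from 0 d to 14 to 28 d of genes with a mean of at least 1 FPKM from 0.28 to 0.01 on the log2 scale. Both scalings are therefore given for each member, and comparisons with 0 d all share the same 4 control samples.

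Muscle fibre markers were high, with a summed 35529 to 38902 FPKM at 0 d and 19209 to 24895 FPKM at 14 to 28 d. The extraction protocol in the labels speaks of retinas, and the 4 of 6 retina markers in the table reached at most 0.40 FPKM. The libraries thus carried muscle fibre markers, whatever the protocol text. Macrophage markers summed to 37.8 to 56.5 FPKM at 0 d, 173 to 324 at 3 d and 109 to 193 at 14 to 28 d. Schwann cell markers summed to 78.3 to 174 FPKM at 0 d and 6.74 to 24.4 at 14 to 28 d. Over 14 to 28 d 4 of 5 macrophage markers were called higher, 3 of 5 Schwann cell markers lower and 1 higher, 4 of 6 muscle fibre markers lower, and all 6 genes of a denervation response list higher. Endothelial markers summed to 84.6 to 99.1 FPKM at 0 d, 52.1 to 69.8 at 3 d, where 3 of 5 were called lower, and 57.2 to 81.3 at 14 to 28 d, where 1 was. Of the fibroblast and satellite cell markers 1 each was called higher over 14 to 28 d, and of the smooth muscle and adipocyte markers none, with 1 adipocyte marker lower at 3 d. The part of these cells in the member levels was not tested.

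At 3 d, replicate 1 stood apart from the other 3 libraries. Its mitochondrial share was 13.5% against 9.95% to 11.5%, and its fibroblast markers summed to 247 FPKM against 438 to 612. It held the highest Dmd and the lowest Utrn and Sspn of its group, and the changes of Dmd, Dtna and Sspn at 3 d are given with and without it.

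Dmd lay higher from 3 d post denervation on and rose past 1.5-fold at 3, 5, 21 and 28 d. Dmd (ENSMUSG00000045103, chrX:82948870-85206141, plus strand) stood at 7.66, 7.77, 8.25 and 9.15 FPKM at 0 d and at 8.49 to 9.87 FPKM at 1 d. At 3 d the samples read 12.4, 12.5, 13.0 and 18.6 FPKM, and at 28 d they read 13.4, 14.2, 14.7 and 15.6 FPKM. As deposited, each sample from 3 d on lay above each sample of 0 d, while the ranges at 0 and 1 d overlapped. The means were 8.21 ± 0.68 (SD, n = 4) at 0 d and 14.5 ± 0.95 (SD, n = 4) at 28 d, and between 12.05 and 14.1 from 3 to 21 d. The log2 change from 0 d was 0.70 ± 0.10 (SE, adjusted p = 8.31e-07) at 3 d and 0.75 ± 0.10 (SE, adjusted p = 2.79e-07) at 28 d. Without replicate 1 the change at 3 d was 0.57, with an adjusted p of 2.02e-06, and no longer reached 1.5-fold. The call at 21 d, a log2 change of 0.59, was likewise lost without any of 4 libraries, replicates 1 and 2 of 0 d and replicates 1 and 3 of 21 d, with values of 0.53 to 0.58.

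The call for Dmd depended on the scaling. After median-ratio scaling the log2 change was 0.49 (adjusted p = 0.0065) at 3 d, 0.29 (adjusted p = 0.12) at 5 d and 0.40 (adjusted p = 0.028) at 28 d, and none of the days was called. In a fit added after the values were seen, median-ratio scaling without replicate 1 of 3 d gave 0.28 (adjusted p = 0.051) at that day. With all libraries the rescaled samples stood clear of those of 0 d at 3 and 28 d and overlapped them at the other days. The dystrophin gene has several internal starts, and a value per gene cannot tell the long muscle isoform from the short ones. The merged exons of Dmd span 23801 bases against 14910 in its longest transcript, so division by the merged length lowers its FPKM relative to genes with few isoforms. The same holds for Dtna, with 16930 against 6295 bases, and Sgcd, with 8257 against 4453. Levels of different members therefore cannot be read as proportions of their mRNA.

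Utrn, the relative of dystrophin that is enriched at the junction, was called at no day. Utrn (ENSMUSG00000019820, chr10:12382188-12869365, minus strand) stood at 6.51, 6.96, 7.34 and 7.43 FPKM at 0 d and at 7.22, 7.80, 8.45 and 8.56 FPKM at 28 d. The lowest value of all was 3.56 FPKM in replicate 1 of 3 d, beside 5.67, 6.70 and 7.49 FPKM in the other libraries. As deposited the ranges of 0 d and of each later day overlapped, and after median-ratio scaling all samples of 3, 5, 21 and 28 d lay below those of 0 d. Its log2 change over 14, 21 and 28 d together was 0.13 ± 0.11 (SE, adjusted p = 0.37) as deposited and -0.19 (adjusted p = 0.049) after median-ratio scaling. The sign thus turned with the scaling, and the test over all 8 time points gave an adjusted p of 0.11.

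Dtna, which encodes the dystrobrevin of muscle that binds dystrophin and the syntrophins, had a peak at 3 d, fell at 5 d and lay above its starting level from 7 d on. Dtna (ENSMUSG00000024302, chr18:23415135-23659715, plus strand) stood at 5.71, 5.80, 6.19 and 6.55 FPKM at 0 d and at 4.74, 5.14, 5.38 and 5.94 FPKM at 1 d. At 3 d it reached 13.7, 16.6, 16.9 and 17.9 FPKM, and at 5 d it stood at 7.50, 7.54, 7.75 and 8.36 FPKM. As deposited the 4 samples of 3 d were above all 28 others, while after median-ratio scaling their range overlapped that of 21 d. As deposited the later samples stood at 9.52 to 11.3 FPKM at 7 d and 11.5 to 13.1 FPKM at 21 d. The log2 change from 0 d was 1.28 ± 0.07 (SE, adjusted p = 1.50e-14) at 3 d, the largest rise of any member at any day. Between 1 and 3 d it rose by 1.45 (adjusted p = 6.11e-15), and between 3 and 5 d it fell by 0.97 on the log2 scale (adjusted p = 1.23e-10).

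The 3 d peak of Dtna held without replicate 1, at 1.24, after median-ratio scaling, at 1.08 (adjusted p = 8.41e-09), and with both, at 0.96. The later level was less firm, since the change over 14 to 28 d was 0.84 ± 0.06 (SE, adjusted p = 1.45e-12) as deposited and 0.52 (adjusted p = 4.49e-05) after median-ratio scaling, under 1.5-fold. At 5 d the sign turned, with 0.32 as deposited and -0.03 after median-ratio scaling. Of its merged exon bases, 0.53% are shared with the antisense gene Gm47898, and strand use in counting is not given in the sources used here.

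Dag1, which encodes the precursor that is cleaved into both dystroglycan subunits, was called at no day. Dag1 (ENSMUSG00000039952, chr9:108204634-108263958, minus strand) stood at 45.0, 45.3, 46.6 and 53.8 FPKM at 0 d, and its 32 samples lay between 39.5 and 62.3 FPKM. The means were 47.7 ± 4.15 (SD, n = 4) at 0 d and 47.2 ± 4.97 (SD, n = 12) over 14 to 28 d, a log2 change of -0.02 ± 0.08 (SE, adjusted p = 0.88). After median-ratio scaling that change was -0.37 (adjusted p = 1.11e-06), under 1.5-fold, and all samples from 5 d on lay below those of 0 d. Dag1 thus lay lower relative to the median gene. As deposited, each day's range overlapped the next in the order of its means.

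The sarcoglycans took different courses. Sgca, which encodes α-sarcoglycan, was highest from 7 d on, Sgcb, which encodes β-sarcoglycan, was above its starting level from 1 d on as deposited, and Sgcd, which encodes δ-sarcoglycan, was lower at each day's mean. Mutations in each cause limb-girdle muscular dystrophy.

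Sgca (ENSMUSG00000001508, chr11:94962791-94976327, minus strand) was the most abundant member per length. It stood at 84.3, 84.8, 85.6 and 86.5 FPKM at 0 d, at 68.6, 70.1, 72.8 and 79.3 FPKM at 1 d and at 77.8 to 83.2 FPKM at 3 d. At 5 d it reached 109, 109, 115 and 116 FPKM, and at 14 d it read 129, 134, 137 and 139 FPKM. As deposited, all samples of 1 and 3 d lay below those of 0 d, and all samples from 5 d on lay above them. After median-ratio scaling the same held for 1 d and for 14, 21 and 28 d. The log2 change was 0.65 ± 0.06 (SE, adjusted p = 2.39e-10) at 14 d and 0.61 ± 0.05 (SE, adjusted p = 8.22e-12) over 14 to 28 d.

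The difference of Sgca at 1 d, -0.23 on the log2 scale with an adjusted p of 0.0029, did not reach 1.5-fold. At 28 d the change of 0.58 fell just short of 1.5-fold. After median-ratio scaling the change over 14 to 28 d was 0.25 (adjusted p = 0.0050), under 1.5-fold. Between 3 and 28 d, a contrast added after the values were seen, Sgca rose by 0.66 (adjusted p = 4.16e-10) as deposited and differed by 0.51 after median-ratio scaling.

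Sgcb (ENSMUSG00000029156, chr5:73632749-73647790, minus strand) stood at 31.5, 32.1, 32.4 and 34.8 FPKM at 0 d and at 36.8, 37.7, 41.1 and 42.3 FPKM at 1 d. It read 46.5, 46.6, 50.2 and 53.5 FPKM at 3 d and 49.9, 50.7, 51.0 and 54.1 FPKM at 28 d. As deposited no later sample overlapped with those of 0 d, but after median-ratio scaling the samples of 1, 5, 7 and 14 d did. The log2 change was 0.57 ± 0.05 (SE, adjusted p = 2.45e-10) at 3 d, just under 1.5-fold, and 0.64 ± 0.05 (SE, adjusted p = 3.49e-11) at 28 d, the only day at which it was called. After median-ratio scaling the change at 28 d was 0.26 (adjusted p = 0.024), under 1.5-fold.

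Sgcd (ENSMUSG00000020354, chr11:46896253-47988969, minus strand) had the lowest level of the members per length. It stood at 3.61, 4.24, 4.73 and 4.84 FPKM at 0 d, at 2.11, 2.25, 2.62 and 2.64 FPKM at 1 d and at 1.87, 2.04, 2.04 and 2.45 FPKM at 3 d. At 28 d it read 2.79, 2.90, 3.10 and 3.22 FPKM. All denervated samples lay below the 0 d samples except 1 sample of 21 d, at 3.96 FPKM, and after median-ratio scaling all of them did. The log2 change was -0.65 ± 0.09 (SE, adjusted p = 2.11e-06) at 1 d, -0.79 ± 0.09 (SE, adjusted p = 3.54e-08) at 3 d and -0.76 ± 0.09 (SE, adjusted p = 6.73e-08) at 7 d.

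Over 14 to 28 d the change of Sgcd was -0.44 ± 0.08 (SE, adjusted p = 1.25e-05), under 1.5-fold on the log2(FPKM + 1) scale, while the mean went from 4.35 ± 0.56 (SD, n = 4) to 2.94 ± 0.42 FPKM (SD, n = 12). After median-ratio scaling Sgcd was called lower at each of the 7 days and over 14 to 28 d, where it fell by 0.74 on the log2 scale (adjusted p = 1.27e-08). It was the sole member called in that comparison under that scaling.

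Sspn, which encodes sarcospan, a small membrane protein of the sarcoglycan subcomplex, fell early and rose late. Sspn (ENSMUSG00000030255, chr6:145931641-145965223, plus strand) stood at 18.3, 20.4, 21.1 and 22.3 FPKM at 0 d, at 9.47, 10.99, 12.7 and 14.3 FPKM at 1 d and at 6.70, 8.79, 10.8 and 11.5 FPKM at 3 d. It returned to 15.9 to 19.0 FPKM at 5 d and reached 31.7, 32.6, 35.6 and 38.3 FPKM at 28 d. As deposited the samples of 0, 14, 21 and 28 d formed separate steps, while after median-ratio scaling those of 14 d overlapped those of 0 d. The log2 change from 0 d was -0.76 ± 0.11 (SE, adjusted p = 3.43e-06) at 1 d, -1.06 ± 0.11 (SE, adjusted p = 3.73e-09) at 3 d and 0.72 ± 0.11 (SE, adjusted p = 3.45e-06) at 28 d.

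The early fall of Sspn was called under both scalings, with -1.29 at 3 d after median-ratio scaling (adjusted p = 1.83e-13), and it was -0.93 as deposited without replicate 1 of 3 d and -1.23 with both. The late rise above 0 d was 0.35 (adjusted p = 0.00083) after median-ratio scaling, under 1.5-fold. The climb itself was called under both, with a log2 change of 0.87 (adjusted p = 8.63e-07) from 3 to 5 d and, in the contrast added later, of 1.79 (adjusted p = 3.42e-13) from 3 to 28 d as deposited and 1.65 after median-ratio scaling. Of its merged exon bases, 1.38% are shared with the antisense gene Sspnos.

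**Figure D1:**
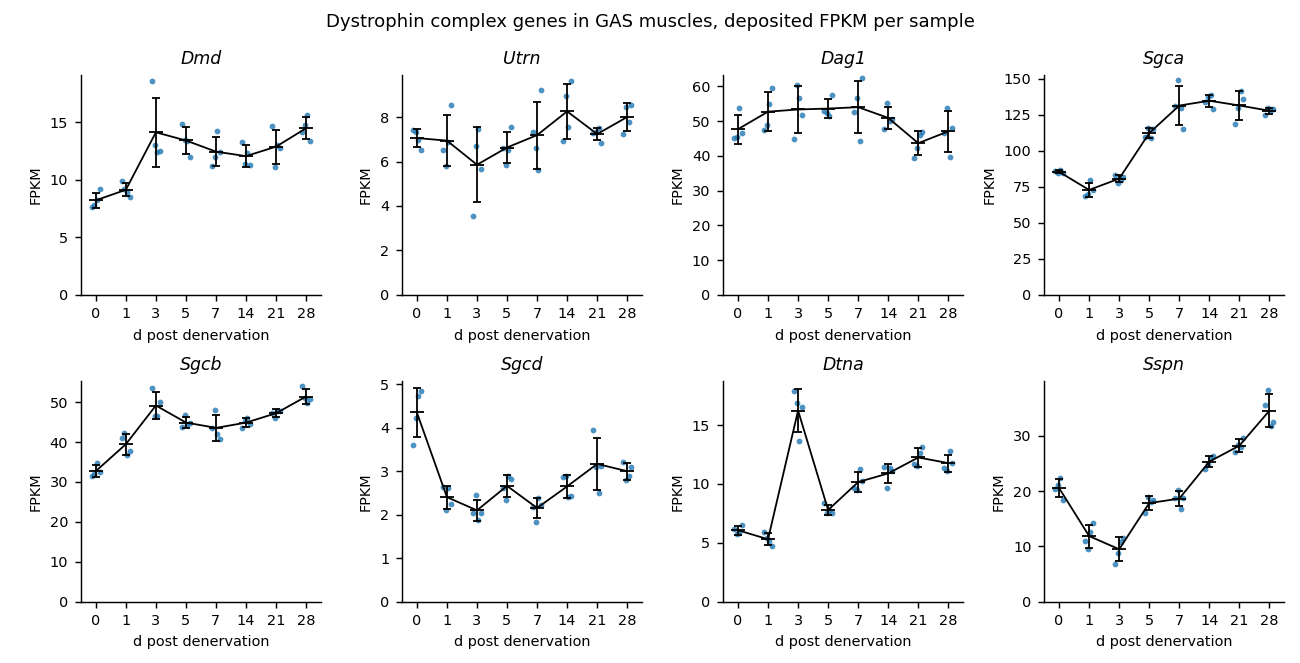
FPKM of each member by day post denervation, with 1 panel per gene, 1 point per sample and the mean ± SD of 4 samples in black. Days are evenly spaced categories. Dtna peaks at 3 d with 13.7 to 17.9 FPKM, and Sspn goes from 6.70 to 11.5 FPKM at 3 d to 31.7 to 38.3 FPKM at 28 d.

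Counted by day, the members called were 0 higher and 2 lower at 1 d (Sgcd and Sspn), where 8.84% of all 22071 tested genes were called. At 3 d, 2 members were higher (Dmd and Dtna) and 2 lower (Sgcd and Sspn), beside 19.3% of all genes. At 5 d, 1 was higher (Dmd) and none lower, beside 18.8%. At 7 d, 2 were higher (Sgca and Dtna) and 1 lower (Sgcd), beside 19.5%, and Sgca, at 0.55, was not called without replicate 2 of 7 d. As deposited the calls up to 7 d thus went in both directions.

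At 14 d, 2 members were higher (Sgca and Dtna) and none lower, beside 18.5% of all genes called. At 21 d, 3 were higher (Dmd, Sgca and Dtna), beside 15.7% of all genes, and only Dtna was left without replicate 3 of 21 d. At 28 d 4 were higher (Dmd, Sgcb, Dtna and Sspn), beside 18.3%. Over 14, 21 and 28 d together 3 were higher (Dmd, Sgca and Dtna) and none lower, beside 17.2% of all genes called, 13.3% higher and 3.91% lower. These counts are descriptions of 8 genes.

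The median log2 change of the 8 members over 14 to 28 d was 0.51, against 0.13 over all tested genes and 0.28 over genes with a mean of at least 1 FPKM, as all members had. Counted without a test and as deposited, all 12 late samples lay above all 4 samples of 0 d in 5 members, beside 27.7% of all genes, and below them in none, beside 6.38%. At 3 d all samples lay above those of 0 d in 3 members, beside 23%, and below them in 3, beside 12.3%. With median-ratio scaling, late samples lay wholly above 0 d in 2 members (Sgca and Dtna), beside 13.8% of all genes, and wholly below in 2 (Dag1 and Sgcd), beside 14%. At 3 d that scaling gave 3 above (Dmd, Sgcb and Dtna), beside 17.4%, and 3 below (Utrn, Sgcd and Sspn), beside 17.8%.

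After median-ratio scaling the member median over 14 to 28 d was 0.16, against 0.02 over all tested genes and 0.01 over those at 1 FPKM or more, and the calls were 0 higher and 1 lower (Sgcd), beside 13.9% of all genes. Among all genes that scaling moved the share of late calls that were higher from 77.3% to 46.1%. At 1 d it kept Sgcd and Sspn lower, beside 8.81% of all genes, and at 3 d it kept Dtna higher and Sgcd and Sspn lower, beside 18.2%. At 5, 7, 14 and 28 d Sgcd alone was called, beside 14.4%, 15.1%, 14.1% and 14.7%, and at 21 d Dtna was higher and Sgcd lower, beside 13.6%.

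**Figure D2:**
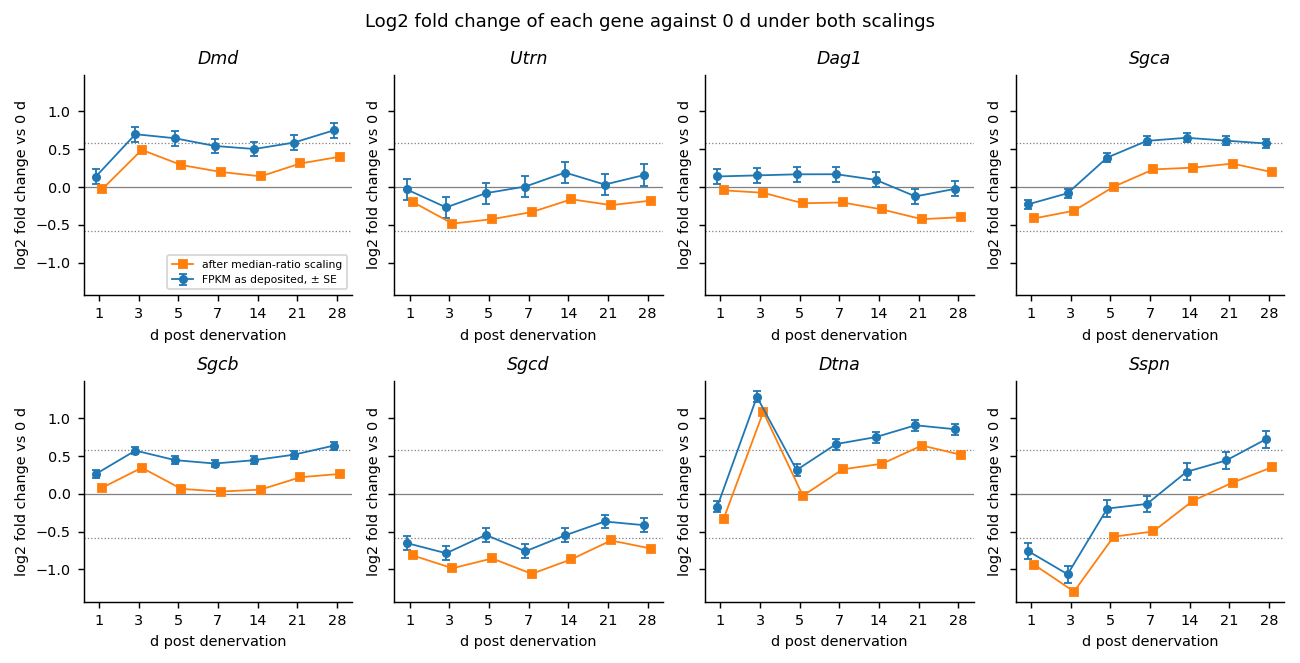
Change from 0 d of each member by day on the log2(FPKM + 1) scale, as deposited in blue with bars of 1 SE and after median-ratio scaling in orange, with dotted lines at 1.5-fold. The orange points lie below the blue ones at each gene and day, so Dmd, at 0.75 and 0.40 at 28 d, crosses the 1.5-fold line only as deposited, while Sgcd lies beyond the lower line at each day after median-ratio scaling.

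Between neighbouring days, members were called at the early steps. From 1 to 3 d 1 member was called (Dtna), beside 10.6% of all genes, and from 3 to 5 d 2 were called (Dtna lower and Sspn higher), beside 5.76%. From 5 to 7 d limma called 0, beside 0.657% of all genes, with 3 members at an unadjusted p under 0.05. Of these, Sgca (0.22, adjusted p = 0.044) and Dtna (0.34, adjusted p = 0.0092) passed the adjusted p and missed 1.5-fold, beside 1.96% of all genes past the adjusted p. From 7 to 14 d it again called 0, beside 0.634%, and 2 members passed at an unadjusted p. Sspn passed the adjusted p (0.43, adjusted p = 0.033), beside 2.54% of all genes. The count was also 0 from 14 to 21 d and from 21 to 28 d, with 2 members at an unadjusted p in each and none at the adjusted p, beside 0.453% and 0.199% of all genes. In the contrast of 28 with 3 d added later, Sgca and Sspn were called, both higher, beside 12% of all genes.

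Ratios to Dmd within a sample do not depend on the scaling between samples. The question here was whether members kept their proportion to dystrophin mRNA, and 56 exact two-sided permutation tests (7 members, 7 days and the 3 late days together) were adjusted jointly. An exact permutation test of 4 against 4 samples cannot go below p = 0.0286, which after adjustment gave 0.0516, so single days could not pass. Sgcd to Dmd went from 0.530 ± 0.043 (SD, n = 4) at 0 d to 0.225 ± 0.032 (SD, n = 12) over 14 to 28 d, a log2 change of -1.24 (exact permutation p = 0.000549, adjusted 0.0154). Dag1 to Dmd went from 5.83 ± 0.59 (SD, n = 4) to 3.65 ± 0.65 (SD, n = 12), a log2 change of -0.69 (exact permutation p = 0.000549, adjusted 0.0154). In both, each late sample lay below each 0 d sample, and 0.000549 is the smallest p this design allows.

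Over the late days together no other member passed the adjusted threshold. The late log2 change was -0.05 for Sgca (exact permutation p = 0.64), -0.13 for Sgcb (exact permutation p = 0.10) and -0.17 for Sspn (exact permutation p = 0.14). Utrn to Dmd went from 0.867 to 0.606 (exact permutation p = 0.0033, adjusted 0.0516), and Dtna to Dmd from 0.741 to 0.894 (exact permutation p = 0.0066, adjusted 0.0516).

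**Figure D3:**
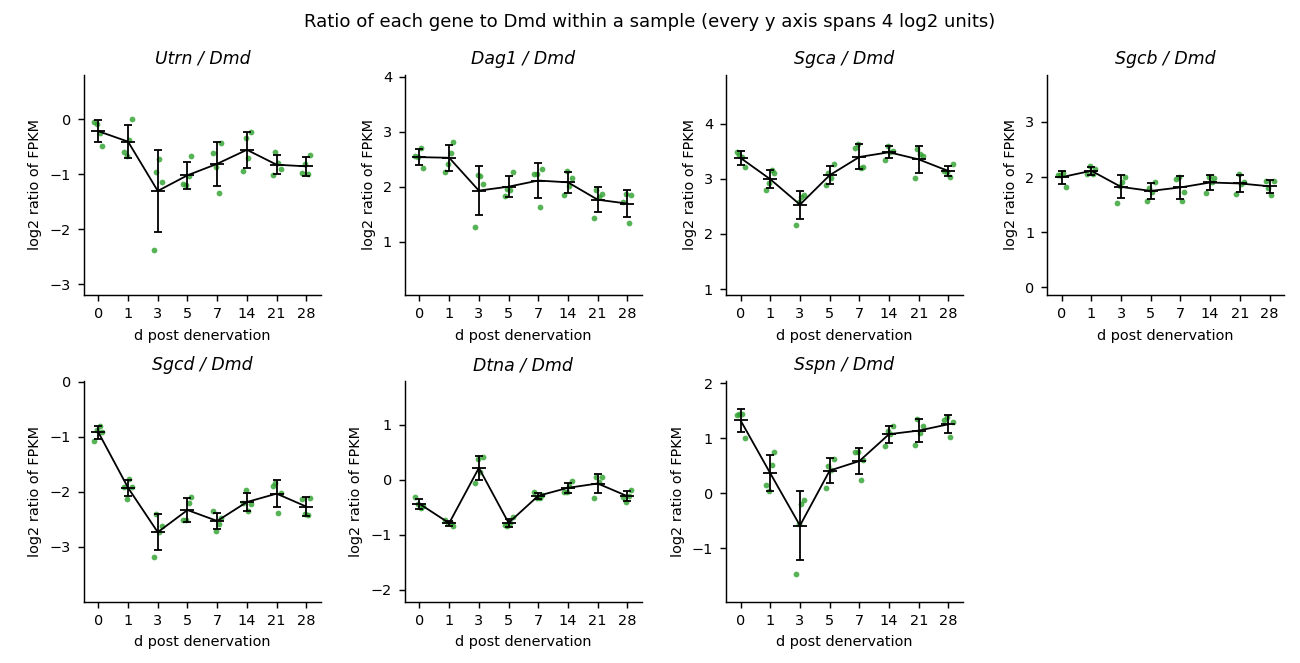
Log2 ratio of the FPKM of each other member to that of Dmd in the same sample, by day post denervation, with 1 point per sample and black marks for the mean ± SD. Each panel spans 4 log2 units. Sgcd and Dag1 lie below their 0 d samples in all 12 samples of 14 to 28 d, while the late log2 ratio of Sgca differs by -0.05 from that at 0 d.

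The remaining genes of the complex came from a fixed list of 11, of which 9 could be tested, and over 14 to 28 d 1 was called higher and 1 lower. Their median log2 change was 0.02, against 0.13 over all genes. After median-ratio scaling 0 were higher and 3 lower, with a median of -0.19. Sgcz, with at most 1 fragment in a sample, and Sntg1, with at most 3, did not reach 0.1 FPKM in at least 4 samples and were not tested.

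Nos1, which encodes the neuronal nitric oxide synthase held at the membrane by the complex, had the largest fall. It stood at 6.98 ± 1.04 FPKM (SD, n = 4) at 0 d and 6.70 ± 1.23 (SD, n = 4) at 3 d, then at 2.06 ± 0.13 (SD, n = 4) at 5 d and 1.21 ± 0.26 (SD, n = 12) over 14 to 28 d. It fell by 1.32 on the log2 scale between 3 and 5 d (adjusted p = 9.18e-09) and by 1.85 from 0 d to 14 to 28 d (adjusted p = 7.00e-15). After median-ratio scaling the late fall was -2.14, so it was called under both scalings.

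Sntb1, which encodes a syntrophin, an adaptor of the complex, lay above its 0 d samples from 5 d on as deposited. Its mean was 4.34 FPKM at 5 d, where it was not called, and 6.21 FPKM at 7 d. It was called under both scalings at 7 d, with log2 changes of 1.00 as deposited and 0.70 after median-ratio scaling. The same held at 14 d, with 0.98 and 0.67. It went from 2.62 ± 0.35 FPKM (SD, n = 4) to 6.51 ± 1.14 (SD, n = 4) at 28 d, and over 14 to 28 d its log2 change was 0.86 (adjusted p = 5.05e-06). At 21 d it stood at 4.31 ± 0.59 FPKM (SD, n = 4) and was not called, with a log2 change of 0.55 (adjusted p = 0.0088). The change over 14 to 28 d was 0.58 after median-ratio scaling, just under 1.5-fold. Sntb2 stood at 3.12 FPKM at 0 d and 3.40 over 14 to 28 d. Sntg2, with only 0 to 18 fragments in a sample, stood at 0.10 and 0.11 FPKM.

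Cav3, which encodes the caveolin of muscle, fell at 1 d, from 42.2 ± 1.93 to 25.8 ± 0.83 FPKM (SD, n = 4 each), by 0.69 on the log2 scale (adjusted p = 9.81e-06). Its late change was -0.43, under 1.5-fold, and with median-ratio scaling it was called at -0.79. Sgce stood at 1.78 FPKM at 0 d and 1.81 over 14 to 28 d, and Dtnb at 0.35 and 0.42, and neither passed the test.

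**Figure D4:**
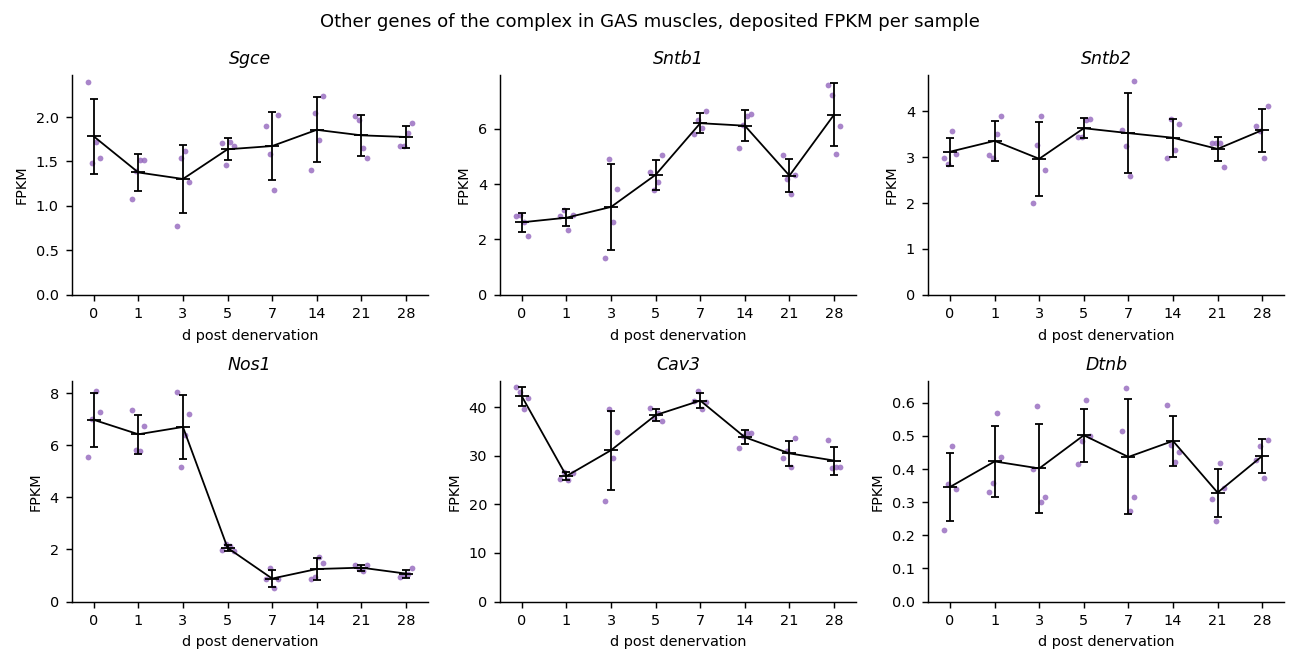
FPKM by day post denervation for 6 further genes of the complex, with 1 point per sample and the mean ± SD in black. Nos1 drops from 6.70 at 3 d to 2.06 at 5 d, Cav3 dips at 1 d, and Sntb1 lies higher from 5 d on.

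Among genes that act beside the complex, the number called in each direction over 14 to 28 d depended on the scaling. The costamere and integrin list, the second link between sarcomere and matrix, had 6 of 13 tested genes higher and none lower, with a median of 0.48. Flnc, the filamin of muscle, went from 74.5 ± 6.48 FPKM (SD, n = 4) to 173 ± 16.6 (SD, n = 12), a log2 change of 1.20 (adjusted p = 6.00e-14), and had reached a mean of 581 FPKM at 3 d. Tln1, which encodes talin that couples integrins to actin, went from 15.3 ± 1.55 to 35.5 ± 3.10 FPKM, a log2 change of 1.17 (adjusted p = 8.82e-15). Under median-ratio scaling both stayed called, at 0.84 and 0.82, and the list had 2 higher and 2 lower, with a median of 0.14.

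The membrane repair and caveolae list had 2 of 10 higher and none lower, with a median of 0.24. Cavin4, a coat protein of muscle caveolae, went from 91.7 to 245 FPKM, a log2 change of 1.40 (adjusted p = 1.31e-16), and Dysf, the dysferlin gene of membrane repair, from 7.62 to 15.6 FPKM, a log2 change of 0.94 (adjusted p = 3.23e-11). Both stayed called after median-ratio scaling, at 1.04 and 0.61, where 2 others of the list were lower and the median was -0.11.

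Genes of dystroglycan glycosylation, which gives dystroglycan its laminin-binding sugar, had 1 of 15 tested higher and none lower, with a median of 0.21. The gene was Pomt1, an enzyme that starts the sugar chain, which went from 1.70 ± 0.23 FPKM (SD, n = 4) to 3.28 ± 0.27 (SD, n = 12), a log2 change of 0.67 (adjusted p = 2.18e-10) that was 0.42 after median-ratio scaling. Under that scaling the list had 0 higher and 1 lower, with a median of -0.09. As deposited it had 1 higher and 2 lower at 3 d, and 2 higher and 0 lower at 5, 7 and 14 d, beside 18.5% to 19.5% of all genes. After median-ratio scaling these were 0 and 2 at 3 d, 1 and 1 at 5 and 7 d, and 0 and 1 at 14 d, beside 14.1% to 18.2%. Of 12 basement membrane ligands limma called 0, as did limma with voom weights, with 2 at an unadjusted p under 0.05 and a median of -0.03, or -0.38 after median-ratio scaling. These counts set beside 17.2% of all genes are descriptions of the lists.

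**Figure D5:**
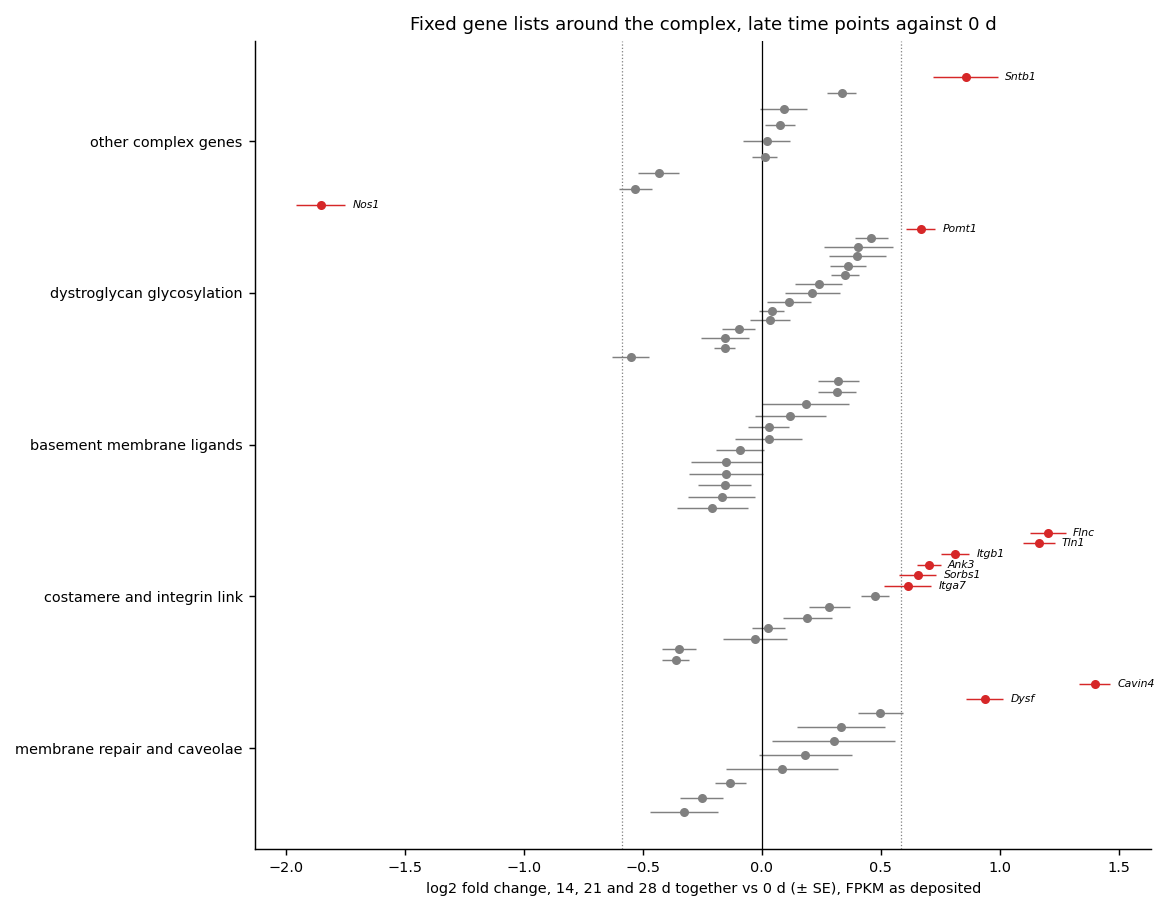
Log2 change from 0 d over 14, 21 and 28 d together for the genes of the fixed lists, with bars of 1 SE, called genes in red and dotted lines at 1.5-fold. Nos1, at -1.85, is the lowest point, and Cavin4, Flnc and Tln1, at 1.40, 1.20 and 1.17, are the highest.

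Genes whose levels ran most like those of each member were named by Pearson correlation of log2(FPKM + 1) over the 32 samples, among 11943 genes with a mean of at least 1 FPKM. The samples share their libraries and time points, so these values are descriptions. Sgca ran most like Bin1 (r = 0.97) and 2310020H05Rik (r = 0.96), Sspn like Lyrm9 (r = 0.96) and Agbl1 (r = 0.95), and Dtna like Gm807 (r = 0.95) and Zfp52 (r = 0.94). Sgcb ran most like Psmc1 (r = 0.93) and Eif4b (r = 0.91), Dmd like Tcp1 and Igbp1 (r = 0.92 each), and Utrn like Ccnd2 (r = 0.92) and Creb3l2 (r = 0.89). For Dag1 the nearest were Grk2 (r = 0.88) and Gpatch8 (r = 0.84), and for Sgcd Exd2 and Mrpl18 (r = 0.84 each). Among the members themselves, Dmd and Sgcb were most alike (r = 0.85), followed by Dmd and Dtna (r = 0.78), and Sgcb and Sgcd ran apart (r = -0.50).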

How the data were processed

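Total RNA of 32 GAS muscle samples from 8 time points was sequenced. The authors deposited FPKM values per gene for 33397 Ensembl genes. Per the submitters' processing notes the tools included CASAVA, HISAT2 2.1.0 and DESeq2 with GRCm38. The counter, the annotation and the use of strand are not given in the sources used here. The columns of the table tie to a time point and not to a labelled sample. Symbols were taken from GENCODE mouse release 21, which matched 33356 identifiers and left 41 unmatched. Fragments were recovered from the steps between low values (99.3% to 99.4% of values under 200 fragments were within 0.02 of a whole number).

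Genes at 0.1 FPKM or more in at least 4 samples (22071) were tested with limma 3.58.1 in R 4.3.3 on log2(FPKM + 1), with all 32 samples in 1 model, a mean-dependent prior and Benjamini-Hochberg adjustment. The alternatives were other scalings, TPM, pseudocounts, filters, fold thresholds, voom on recovered fragments and leaving out each replicate. Ratios were tested by exact permutation in scipy 1.17.1, with Python 3.11.15, numpy 2.4.6, pandas 2.3.3 and matplotlib 3.10.9. The fits were tested on simulated data. Named genes were the members, the measured genes of the complex list (2 of which are not reported here), up to 2 called genes in each direction from each other list, and for each member the 2 most correlated genes. The members and lists were chosen with earlier results of these data known, and the CANNTG search, the contrast of 28 with 3 d and the rescaled fit without replicate 1 of 3 d were added after values were seen. The promoter windows came from RefSeq in GRCm38.p6. No window is printed for Utrn or Dtna.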

Additional observations from a re-analysis of the deposited data

Results flagged for a closer look

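The highest Dmd sample at 3 d, 18.6 FPKM in replicate 1, lay far from the other 3 of its group, at 12.4 to 13.0 FPKM. It was the only such sample in 64 groups of 4, where chance would give about 3.2. The part of that library's higher mitochondrial share and lower fibroblast markers in the value was not tested.

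In 5 cases the change from 0 d differed between time points by a test of the difference itself in limma. The change of Dtna at 3 d exceeded that at 1 d by 1.45 on the log2 scale (adjusted p = 6.11e-15) and that at 5 d differed from that at 3 d by -0.97 (adjusted p = 1.23e-10). The change of Sspn at 5 d exceeded that at 3 d by 0.87 (adjusted p = 8.63e-07). In the contrast of 28 with 3 d, chosen after the values were seen, the difference was 0.66 for Sgca (adjusted p = 4.16e-10) and 1.79 for Sspn (adjusted p = 3.42e-13).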

How the results depend on the processing

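No paired analysis was possible because the columns carry letters and numbers that no label ties to samples across time points, so the fit with a replicate block was not run. The calls turned on the fold threshold and the scaling. The members called, as reported, were 2, 4, 1, 3, 2, 3 and 4 at 1, 3, 5, 7, 14, 21 and 28 d and 3 over 14 to 28 d. With no fold threshold 4 were called at 1 d, 5 each at 5 and 7 d and 6 each at 14 and 21 d and over 14 to 28 d. With a lower fold threshold, a rise of 25%, the count was 4 at 5 d, 5 each at 7 and 14 d and 6 each at 21 d and over 14 to 28 d. After rescaling to TPM the members called were 2, 5, 4, 5 and 5 at 5, 7, 14 and 21 d and over 14 to 28 d. Of all 22071 tested genes, 9008 were higher and 2472 lower over 14 to 28 d with no fold threshold. These were 6146 and 1576 with the lower threshold and 5983 and 871 in TPM, so the member counts at these settings are descriptions. With a pseudocount of 0.1 or voom 2 members were called at 5 d. Median-ratio and quantile scaling each gave 1 at 7, 14 and 28 d and over 14 to 28 d, and a total without mitochondrial genes gave 1 at 7 d, 21 d and over 14 to 28 d. In the 5 lists 9, 15, 12, 13 and 10 genes were tested. Of these, 11 were called over 14 to 28 d, beside 17.2% of all genes. The count was 30 with no fold threshold, 25 with the lower one and 17 in TPM. These list counts are descriptions as well, to be read beside the counts of all genes at the same settings.

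Of all genes, 2930 were called higher and 862 lower over 14 to 28 d. These were 9008 and 2472 with no fold threshold, 6146 and 1576 with the lower one, 5767 and 1435 with a pseudocount of 0.1, 5859 and 1541 with voom, 1414 and 1651 with median-ratio scaling and 1545 and 1534 with quantile scaling. In TPM 5983 were higher. Why the pseudocount and voom moved these counts was not tested.

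With single replicates left out, the members called were 2 in each fit for 1 d and 3 in each fit for 14 to 28 d. They ranged from 3 to 5 for 3 d, 1 to 2 for 5 d, 2 to 4 for 7 d, 2 to 3 for 14 d, 1 to 3 for 21 d and 4 to 5 for 28 d, the lists from 11 to 12, and all genes from 2864 to 3031 higher and from 856 to 891 lower. Dmd at 21 d lost its call without replicate 1 or 2 of 0 d or replicate 1 or 3 of 21 d, Sgca at 7 d without replicate 2 of 7 d and at 21 d without replicate 3 of 21 d, and Dmd at 3 d without replicate 1 of 3 d. Calls were gained by Sgcd at 5 d, which made the count there 2, and at 14 d without replicate 1 of 0 d, by Sgcb at 3 d without replicate 3 of 0 d or replicate 2 or 3 of 3 d, by Dmd at 7 d without replicate 4 of 0 d or replicate 1 of 7 d, and by Sgca at 28 d without replicate 1 of 28 d. The late ratio to Dmd passed the adjusted threshold for Sgcb and Sspn without replicate 4 of 0 d, with ranges of -0.18 to -0.10 and -0.28 to -0.13. Over all alternatives, Sgcb and Sgcd kept their sign at each comparison with 0 d, as did the late values of Dmd, Sgca, Dtna and Sspn, while the uncalled late values of Dag1 and Utrn changed sign. Sgcz and Sntg1 were at or under 3 fragments in each sample, where low depth and absent transcripts cannot be told apart.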
